A study of Mus musculus with 3 samples.

Results

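T cell receptor variable gene usage was described in 3 droplet single-cell RNA libraries of mouse mesenteric lymph node, 1 library per oral feeding. The members were all genes of the deposited feature list whose symbol begins with Trbv, Trav, Trdv, Trgv or Tcrg-V. This gave 176 of 32285 genes: 35 of the beta locus, 128 of the alpha locus, 6 of the delta locus and 7 of the gamma locus (Trgv2 and 6 genes named Tcrg-V). Each library pooled the nodes of 6 animals after 4 weeks of feeding. The control was fed 5 mM citrate buffer, the second group 1 µg free ovalbumin (free OVA), and the third the same ovalbumin dose carried by nanoparticles with lyso-phosphatidylserine (LysoPS-OVA). Values of the 3 libraries are given in that order throughout. The labels name no strain, age or sex, and no transgene. They call the cells intestinal cells, while T and B cell transcripts were plentiful: 26.1%, 14.2% and 30.6% of kept barcodes met the T cell rule below.

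A T cell receptor is a pair of chains, alpha with beta or gamma with delta. In the thymus each chain's variable region is assembled from gene segments by the Rag recombinase, and 1 variable (V) segment is kept per productive chain. The V segment encodes most of the variable region, and the CDR3 loop starts just after its last cysteine. Delta V segments lie within the alpha locus, and an alpha rearrangement can delete them. Trav genes whose symbol holds "dv" can also join the delta chain, and their UMIs are counted as alpha throughout. In laboratory mice a stretch of the alpha locus exists in repeated copies, whose genes carry a "d" or an "n" in their symbol. The kit reads RNA from the 3′ end, where the constant region lies, and the V segment is at the 5′ end, so few reads reach it.

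Every V gene had an entry in GENCODE M21 for GRCm38 (mm10), and the printed stretches below come from its transcripts. They are the last 60 coding bases of the V exon, with the codon of the last in-frame cysteine in capitals, and they show why closely related genes must be told apart by few bases. The first set holds Trbv2, Trbv20 and Trbv12-2, which led the beta locus, and Trbv12-1, whose family serves the well-known ovalbumin-specific receptors OT-I and OT-II.
Trbv2: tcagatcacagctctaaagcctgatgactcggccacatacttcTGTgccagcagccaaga
Trbv20: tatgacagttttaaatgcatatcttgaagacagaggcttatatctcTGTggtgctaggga
Trbv12-1: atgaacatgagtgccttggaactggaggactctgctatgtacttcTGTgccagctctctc
Trbv12-2: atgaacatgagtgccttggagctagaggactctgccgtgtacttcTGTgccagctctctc
These stretches lie on the forward strand of mm10 at chr6:41047936-41047995, chr6:41188918-41188977, chr6:41114008-41114067 and chr6:41119305-41119364. Trbv12-1 and Trbv12-2 differed at 4 of these 60 bases. The Trbv13 genes, a family that includes the beta chains most used by invariant natural killer T cells, differed from each other at 8 to 10.
Trbv13-1: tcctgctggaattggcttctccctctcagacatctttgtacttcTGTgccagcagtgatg
Trbv13-2: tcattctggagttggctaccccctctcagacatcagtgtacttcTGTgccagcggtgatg
Trbv13-3: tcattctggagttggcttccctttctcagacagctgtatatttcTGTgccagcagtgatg
They lie at chr6:41116409-41116468, chr6:41121773-41121832 and chr6:41130526-41130585, also on the forward strand. Trbv3, Trbv15 and Trbv16 are shown because their shares were lower in LysoPS-OVA than in citrate buffer.
Trbv3: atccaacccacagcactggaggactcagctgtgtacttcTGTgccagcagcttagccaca
Trbv15: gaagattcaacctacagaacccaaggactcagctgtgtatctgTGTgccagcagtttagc
Trbv16: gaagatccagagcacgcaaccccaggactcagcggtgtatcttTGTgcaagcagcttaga
They lie at chr6:41048769-41048828, chr6:41141599-41141658 and chr6:41152171-41152230 on the forward strand, and Trbv15 and Trbv16 differed at 13 of the 60 bases. The gamma genes Trgv2 and Tcrg-V1 led the gamma locus and differed at 3.
Trgv2: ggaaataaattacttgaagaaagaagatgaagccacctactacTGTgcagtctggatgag
Tcrg-V1: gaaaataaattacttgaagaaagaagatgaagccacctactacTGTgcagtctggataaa
Trgv2 lies on the reverse strand at chr13:19336573-19336632 and Tcrg-V1 on the forward strand at chr13:19340395-19340454. For the delta locus Trdv1, Trdv2-1 and Trdv2-2 are shown, of which the last 2 differed at 4 bases.
Trdv1: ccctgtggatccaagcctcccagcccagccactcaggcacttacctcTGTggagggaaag
Trdv2-1: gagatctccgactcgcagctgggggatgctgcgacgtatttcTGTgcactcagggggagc
Trdv2-2: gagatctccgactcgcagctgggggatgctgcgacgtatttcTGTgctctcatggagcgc
They lie on the forward strand at chr14:53882158-53882217, chr14:53946601-53946660 and chr14:53961543-53961602.

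T barcodes were those with at least 2 UMIs (unique molecules) of Cd3d, Cd3e and Cd3g together and 0 of Cd79a. They numbered 5742, 3122 and 4898, with median depths of 3905, 5424 and 5141 UMIs. Barcodes fell in a class when 1 defining transcript was seen and those of the other classes were not. The Foxp3 class (regulatory T cells) held 259, 247 and 351 barcodes, the Cd4 class (Cd4 without Foxp3) 1636, 1064 and 1931, and the Cd8b1 class 1072, 471 and 793. The Trdc class, named for the delta constant gene, held 74, 37 and 76. A further 2382, 1178 and 1497 T barcodes showed none of these transcripts, and 319, 125 and 250 showed those of several classes. Between 2 and 7 T barcodes carried a sequence found in another library too.

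The classes were checked on marker lists. Foxp3 is in the regulatory list and Cd8b1 in the CD8 list. Both are 0 in the Cd4 class by rule, so part of each difference was fixed in advance. The 7 regulatory T cell markers summed to 3418, 3401 and 3665 CPM (UMIs scaled to the summed UMIs of the class) in the Foxp3 class, against 523, 369 and 424 in the Cd4 class. The 5 CD8 markers summed to 1606, 1683 and 1665 in the Cd8b1 class against 155, 240 and 134 in the Cd4 class. In the Trdc class, where Cd8b1 is 0 by rule, they summed to 1627, 1505 and 1300. The Trdc class went against a pure gamma delta label. Alpha or beta constant transcripts (Trac, Trbc1 or Trbc2) were seen in 95.9%, 91.9% and 98.7% of its barcodes and gamma constant transcripts in 28.4%, 37.8% and 30.3%. In the Cd4 class gamma constant transcripts were seen in 1.22%, 0.94% and 0.83%. In B barcodes (defined below) alpha or beta constant transcripts were seen in 40.7%, 14.4% and 24.0%. The 10 gamma delta markers, which include Trdc, summed to 1015, 1126 and 1016 CPM in the Trdc class. They summed to 144, 105 and 109 in the Cd4 class, where Trdc is 0 by rule, and to 298, 310 and 341 in B barcodes. In the Trdc class the 6 natural killer cell markers summed to 625, 307 and 325 CPM, and 0, 2 and 0 of them were at 0. They summed to 21.9, 9.49 and 8.18 in the Cd4 class. The class is therefore named for Trdc and not called gamma delta T cells. The part of natural killer cells, and of RNA from other cells, in its values was not tested.

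V transcripts were rare in T cells and close to absent in B cells. A beta V UMI was seen in 10.6%, 13.4% and 12.8% of T barcodes, and an alpha V UMI in 13.3%, 14.4% and 15.5%. B barcodes (at least 2 UMIs of Cd79a and 0 of the Cd3 genes) had a beta V UMI in 0.592%, 0.276% and 0.275% and an alpha V UMI in 0.536%, 0.276% and 0.466%, at median depths of 3781, 5411 and 4499.5 UMIs. Both chains were caught together in 117, 77 and 127 T barcodes, which is 2.04%, 2.47% and 2.59% of them. The locus totals in T barcodes were 702, 513 and 736 UMIs for beta, 1008, 676 and 1068 for alpha, 58, 57 and 82 for gamma and 44, 26 and 61 for delta. All shares below rest on these totals. Intervals are exact binomial (Clopper-Pearson) 95% intervals that cover counting error only, and UMIs of 1 barcode, or of 1 expanded clone, are not independent.

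**Figure D1:**
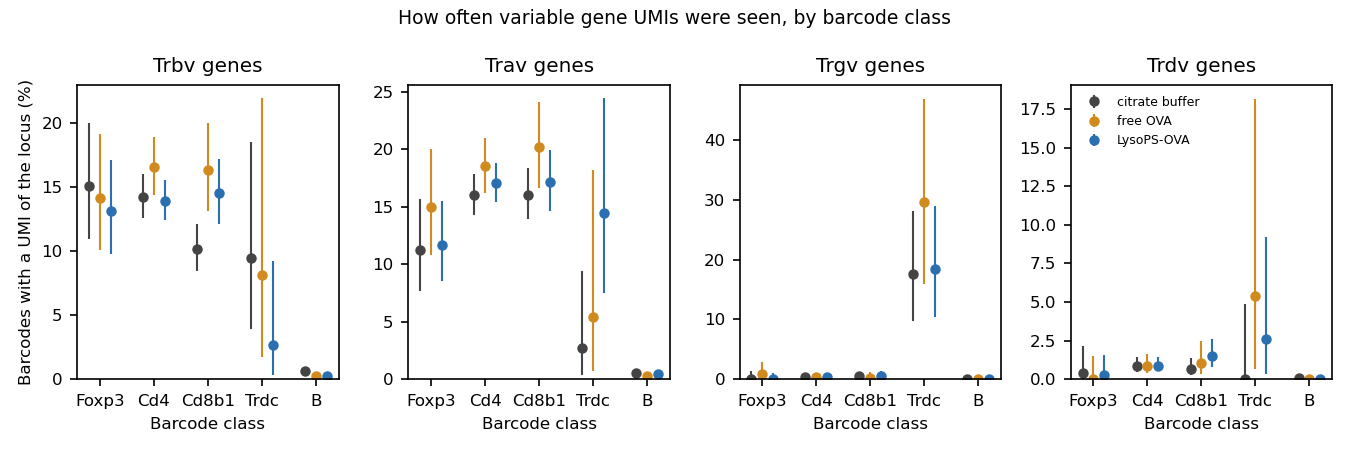
Share of barcodes (%) with at least 1 UMI of the V genes of each locus, by barcode class, 1 point per library with its exact 95% interval for counting error. Beta and alpha V genes were seen in 10.2% to 20.2% of Foxp3, Cd4 and Cd8b1 barcodes, and gamma V genes in 17.6% to 29.7% of Trdc barcodes; B barcodes stayed below 0.6%.

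Most alpha genes that were never seen share every stretch of read length with a copy. Of the 176 genes, 61 had 0 UMIs in T barcodes of all 3 libraries: 50 alpha, 10 beta, 1 gamma and 0 delta genes. Each annotated transcript was cut into windows of 90 bases, the read length, and each window was looked up in the other V genes. For 38 genes no window was their own, and 36 of these were at 0, with 2 UMIs over the other two. Of 71 genes with some shared windows 10 were at 0, and they held 2024 UMIs. Of 67 genes with only unique windows 15 were at 0, of which 10 are annotated beta pseudogenes. The 22 beta genes annotated as functional were all seen. Levels of single alpha genes are uncertain wherever a copy shares their windows, while each beta gene stands on windows of its own. Trav11, the alpha gene of invariant natural killer T cells, had 0.394% unique windows and 1, 0 and 1 UMIs, so its level could not be read. Trav1, the alpha gene of mucosal-associated invariant T cells, had unique windows throughout and 11, 9 and 12 UMIs, or 1.09%, 1.33% and 1.12% of alpha V UMIs.

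**Figure D2:**
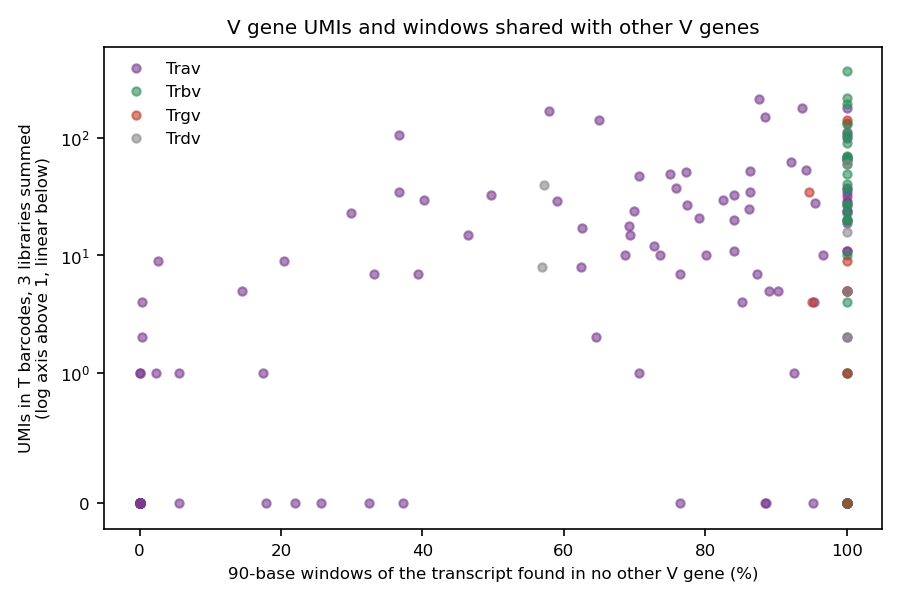
UMIs of each V gene in T barcodes, 3 libraries summed (log axis above 1, linear below), against the share of its 90-base transcript windows found in no other V gene (%). Each point is a gene; of the 38 genes at 0% unique windows 36 had 0 UMIs.

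Trbv2 was the leading beta gene in all 3 libraries. It held 104 of 702 beta UMIs (14.8%, interval 12.3 to 17.7) with citrate buffer, 122 of 513 (23.8%, 20.2 to 27.7) with free OVA and 149 of 736 (20.2%, 17.4 to 23.3) with LysoPS-OVA. Those UMIs came from 92, 82 and 119 barcodes, with at most 6 in a single barcode, so no single cell carried the share. Trbv12-2 followed with 11.8%, 10.3% and 11.3%, with overlapping intervals. Trbv20 held 9.40%, 6.63% and 12.8%, and was second in LysoPS-OVA only. Below these came Trbv13-2 (8.26%, 5.85% and 6.39%), Trbv13-1 (7.55%, 4.87% and 7.47%), Trbv1 (3.99%, 7.02% and 5.98%) and Trbv3 (7.41%, 6.43% and 2.58%). Neighbours in this lower order had overlapping intervals in free OVA, while those of Trbv1 and Trbv3 did not overlap in LysoPS-OVA. Trbv19, Trbv13-3, Trbv31, Trbv12-1, Trbv26, Trbv16, Trbv15 and Trbv29 had mean shares between 2.22% and 4.66%. Trbv5 had 2, 1 and 1 UMIs. Trbv24, annotated as a pseudogene, had 11, 3 and 13 UMIs on unique windows. Trbv15, Trbv16, Trbv17, Trbv24, Trbv26, Trav4-2, Trav7-3, Trav13n-3 and Trav19 were chosen for mention after their values were seen.

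**Figure D3:**
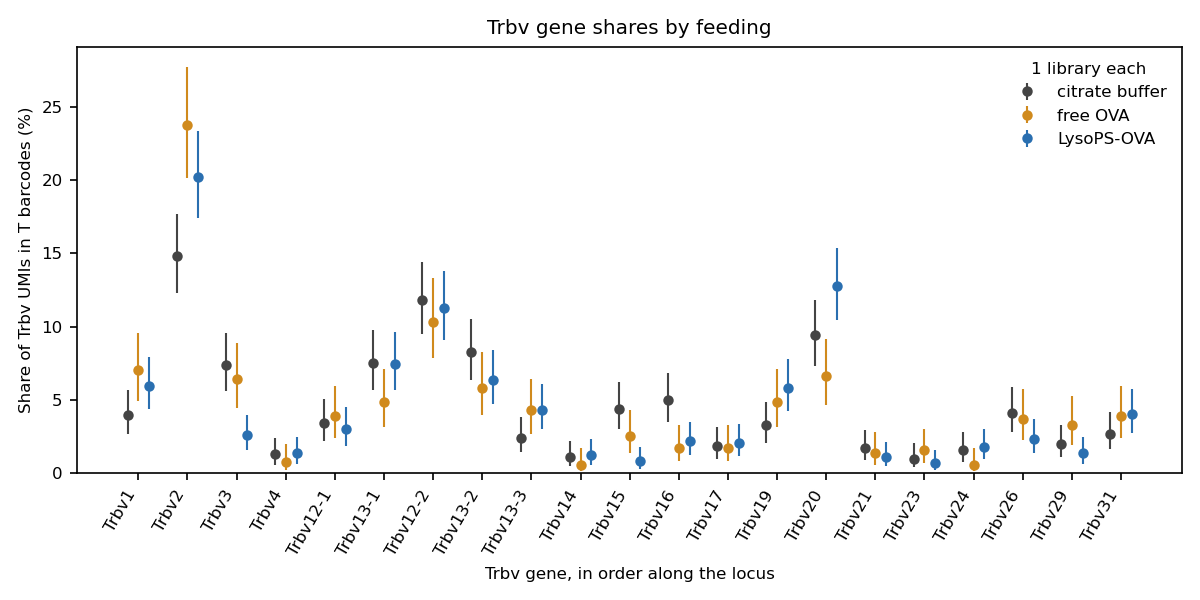
Share of beta V UMIs (%) of each Trbv gene with at least 20 UMIs, in order along the locus, in T barcodes of the 3 libraries (1 point each, exact 95% intervals for counting error). Trbv2 is the highest in each library, and Trbv3, Trbv15 and Trbv16 are lower in LysoPS-OVA than in citrate buffer.

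No alpha gene held as large a share as Trbv2. Trav3-3 led citrate buffer and free OVA with 83 of 1008 UMIs (8.23%) and 58 of 676 (8.58%), and held 75 of 1068 (7.02%) in LysoPS-OVA. Trav5-4 held 6.65%, 8.14% and 5.52%, Trav13n-4 6.55%, 4.88% and 7.68%, Trav16d-dv11 4.86%, 5.77% and 7.68%, Trav6n-6 4.96%, 6.66% and 5.43%, and Trav16n 6.55%, 4.59% and 4.21%. Neighbours in the order of these 6 genes had overlapping intervals in each library, and the highest and the lowest did not overlap. Because copies share windows, families are firmer than genes: the 3 Trav16 genes summed to 13.1%, 11.7% and 14.3%, the 12 Trav13 genes to 13.1%, 9.17% and 13.0%, and the 15 Trav6 genes to 12.5%, 10.8% and 13.2%. The 13 Trav7 genes varied most of these, with 7.14%, 13.3% and 10.2%. Genes without a copy letter held 62.6%, 62.6% and 57.6% of alpha V UMIs.

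The families of the OT-I and OT-II receptors, which pair a Trav14 gene with a Trbv12 gene, kept near-equal shares in the 3 feedings. Trbv12-1 and Trbv12-2 together held 107 of 702 beta UMIs (15.2%, interval 12.7 to 18.1), 73 of 513 (14.2%, 11.3 to 17.6) and 105 of 736 (14.3%, 11.8 to 17.0). The 9 Trav14 genes held 8.73%, 9.76% and 8.90% of alpha UMIs. In the Foxp3 class the Trbv12 pair held 9 of 49, 8 of 48 and 7 of 60 UMIs. The intervals overlapped, at 8.76% to 32.0%, 7.48% to 30.2% and 4.82% to 22.6%. A V gene says nothing of a cell's specificity by itself, and at these counts a rare ovalbumin-specific clone could not have been detected. The beta genes used by invariant T cells (Trbv13-2, Trbv13-3, Trbv1, Trbv29 and Trbv19) and by other T cells summed to 19.9%, 25.3% and 23.9%.

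Trgv2 was the leading gamma gene, followed by Tcrg-V1. Trgv2 held 39 of 58 gamma UMIs (67.2%) with citrate buffer, 39 of 57 (68.4%) with free OVA and 65 of 82 (79.3%) with LysoPS-OVA. Tcrg-V1 held 10, 12 and 13 UMIs, Tcrg-V4 7, 0 and 2, Tcrg-V6 1, 4 and 0, and Tcrg-V3 0, 2 and 2. Tcrg-V5 had 1, 0 and 0 UMIs, and Tcrg-V7 was at 0 in every library, with exact intervals that reach 6.16%, 6.27% and 4.40% of gamma UMIs. Of the barcodes with a gamma V UMI, 18 of 41, 13 of 33 and 23 of 43 also had a Trdc UMI, against 135 of 5701, 68 of 3089 and 141 of 4855 without one. In shares these are 43.9%, 39.4% and 53.5% against 2.37%, 2.20% and 2.90%, at median depths of 4420, 4662 and 6010 UMIs against 3898, 5429 and 5137. Nearly all of the barcodes with a gamma V UMI (39 of 41, 32 of 33 and 43 of 43) held an alpha or beta constant UMI too. Among all T barcodes 92.8%, 92.5% and 98.0% did.

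Few barcodes with a delta V transcript had a UMI of the delta constant gene. Trdv1 had 19, 8 and 33 UMIs, Trdv2-2 12, 13 and 15, Trdv3 (annotated as a pseudogene) 9, 3 and 4, Trdv2-1 3, 2 and 3, Trdv5 1, 0 and 4, and Trdv4 0, 0 and 2. Of the 36, 25 and 46 T barcodes with a delta V UMI only 1, 3 and 4 had a Trdc UMI (2.78%, 12.0% and 8.70%), against 2.66%, 2.52% and 3.30% of the other T barcodes. The intervals for the former (0.0703 to 14.5, 2.55 to 31.2 and 2.42 to 20.8) include the latter in citrate buffer and LysoPS-OVA and start just above it in free OVA, with 3 barcodes, at median depths of 4476, 6672 and 5716.5 UMIs against 3900.5, 5413 and 5137.5. An alpha or beta constant UMI was present in 35, 24 and 46 of the barcodes with a delta V UMI, and in 92.8%, 92.5% and 98.0% of all T barcodes. In B barcodes delta V UMIs numbered 2, 0 and 0.

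V gene levels were compared between classes within each library, with the library as a block. Summed UMIs of each class in each library were tested with edgeR's quasi-likelihood test over 10787 genes, with Benjamini-Hochberg adjustment over all of them. This compares a gene's UMIs with all UMIs of the class, not with its locus. Its log2 differences therefore mix usage with how often V transcripts were caught. A fit with the locus total as offset, which compares shares, called 0 of 6 V genes in each contrast. The labels do not say more of the pools than 6 animals each, so the 3 libraries are the replicates. Only 6 V genes had enough UMIs to be tested: Trbv2, Trbv12-2, Trbv20, Trav3-3, Trgv2 and Tcrg-V1, the gamma genes only through the Trdc class.

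Between the Cd8b1 and Cd4 classes 0 of the 6 V genes passed an adjusted p of 0.05, where 16.0% of all genes did (7.87% higher). At an unadjusted p under 0.05, 2 were lower in Cd8b1 with edgeR and 1 with DESeq2, which called 0 as well. Trbv20 had 31, 14 and 42 UMIs in the Cd4 class (11.4%, 6.73% and 13.5% of beta UMIs) and 7, 3 and 12 in the Cd8b1 class (5.60%, 2.97% and 9.02%). Its log2 difference was -1.07 (SE 0.43, edgeR adjusted p = 0.0964). Trbv2 had 15.8%, 25% and 22.2% in the Cd4 class and 7.2%, 21.8% and 16.5% in the Cd8b1 class, a log2 difference of -0.68 (SE 0.33, edgeR adjusted p = 0.190). Both genes were lower in the Cd8b1 class in 3 of 3 libraries, and neither difference passed the adjustment. Trbv12-2 (log2 difference -0.06, SE 0.32) and Trav3-3 (0.17, SE 0.37) had differences smaller than their errors.

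With rarer beta genes taken in, shares were read for direction alone. The 14 beta genes with at least 30 UMIs over both classes and the 3 libraries include Trbv2, Trbv12-2 and Trbv20, already tested above. Of the 14, 4 had a higher share in Cd8b1 in all 3 libraries (Trbv12-1, Trbv13-1, Trbv16 and Trbv17). A lower share was seen for 5 (Trbv1, Trbv13-2, Trbv2, Trbv20 and Trbv3), and 5 went both ways. Among V genes of all loci on CPM, 5 of 32 were higher and 9 lower in all 3 libraries. The same held for 39.3% of all genes in that range of counts, so this number is close to the background. Trbv12-1 had 6 of 125, 5 of 101 and 7 of 133 beta UMIs in the Cd8b1 class (4.8%, 4.95% and 5.26%), and 1.47%, 2.40% and 0.965% in the Cd4 class. The ratios were 3.28 (interval 0.777 to 15.8), 2.06 (0.474 to 8.95) and 5.46 (1.25 to 32.7), so only that of LysoPS-OVA leaves out 1. Its near copy Trbv12-2 had ratios of 1.28, 1.22 and 0.946. Trbv16 had 7.2%, 3.96% and 3.76% in Cd8b1 against 5.13%, 0.962% and 0.643% in Cd4. Among alpha genes 4 of 17 were higher in Cd8b1 in all libraries, among them the 3 Trav16 genes, and 4 were lower. Trav16d-dv11 stood out in free OVA with 16.1% against 3.08%, from 14 Cd8b1 barcodes with up to 6 UMIs each, while citrate buffer (5.15% against 4.91%) and LysoPS-OVA (7.61% against 7.03%) showed little difference.

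**Figure D4:**
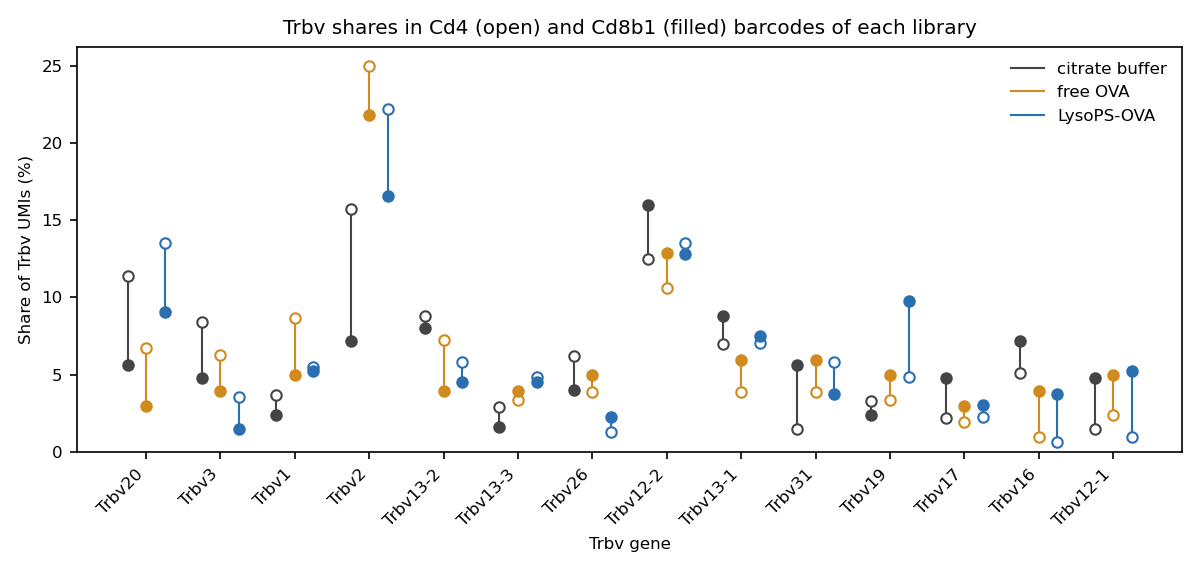
Share of beta V UMIs (%) in Cd4 barcodes (open circles) and Cd8b1 barcodes (filled circles) of each library, for the 14 Trbv genes with at least 30 UMIs, ordered by the ratio of their mean shares. Trbv20, Trbv3, Trbv1, Trbv2 and Trbv13-2 are lower in Cd8b1 in each library, and Trbv12-1, Trbv16, Trbv17 and Trbv13-1 higher.

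Trbv2, Trbv12-2 and Trbv20 led the beta locus in the Foxp3 class, as in the Cd4 class, by mean share. In Foxp3 against Cd4, 0 of 6 V genes were called by edgeR or by DESeq2 and 0 reached an unadjusted p under 0.05 with either, where 18.1% of all genes were called (10.3% higher). The Foxp3 class held few V UMIs: 49, 48 and 60 for beta and 37, 55 and 76 for alpha. Trbv2 had 8, 10 and 9 of these beta UMIs, or 16.3%, 20.8% and 15.0%, and a log2 difference of -0.24 (SE 0.41). Trbv12-2 had 14.3%, 10.4% and 8.33%, and Trbv20 4.08%, 8.33% and 18.3%. Of 11 beta genes with at least 30 UMIs, 0 were higher in all 3 libraries and 1, Trbv31, was lower. Of 11 alpha genes 0 were higher in all 3 and 4 were lower (Trav13n-4, Trav14-1, Trav14d-3-dv8 and Trav7-3). Some high alpha shares came from single barcodes. Trav13n-3 had 12 UMIs in the Foxp3 class of LysoPS-OVA, all in 1 barcode, and 0 in the other libraries. Trav21-dv12 had 0, 5 and 14 UMIs there, 9 of the last 14 in 1 barcode. On CPM, 0 of 22 V genes were higher and 8 lower in Foxp3 in all 3 libraries, where 38.1% of all genes in that range went 1 way.

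In the Trdc class the gamma V genes Trgv2 and Tcrg-V1 were higher than in the Cd4 class. Trgv2 had 17, 22 and 24 UMIs in the Trdc class against 1, 4 and 11 in the far larger Cd4 class, a log2 difference of 6.73 (SE 0.53, edgeR adjusted p = 3.83e-09). Tcrg-V1 had 2, 5 and 2 UMIs against 3, 1 and 2, a log2 difference of 5.20 (SE 1.05, edgeR adjusted p = 0.00242). Of the 6 V genes these 2 were called and 0 fell, where 4.0% of all genes were called and 2.26% were higher. Nothing can be read from that count, since both genes entered the test only because they were high in the Trdc class. For the same reason their adjusted p values are no separate support, and Tcrg-V1 rests on few UMIs. Without any 1 library only Trgv2 was called. As shares of gamma UMIs, with the locus total as offset, 0 were called, and the log2 difference was 0.49 for Trgv2 and -1.0 for Tcrg-V1. Beta V UMIs were seen in 9.46%, 8.11% and 2.63% of Trdc barcodes (9, 3 and 3 UMIs) against 14.2%, 16.5% and 13.9% in the Cd4 class. Alpha V UMIs were seen in 2.70%, 5.41% and 14.5% (3, 3 and 12 UMIs) against 16.0%, 18.5% and 17.0%. These counts include genes that can join the delta chain, among them Trav14d-3-dv8 with a mean share of 13.9% in the Trdc class. Trbv12-2 was at 0 there, and its fitted decrease did not pass (edgeR adjusted p = 0.193).

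The genes around the receptor were read from lists. Among 14 receptor signalling genes 3 rose and 6 fell in Cd8b1 against Cd4 (median log2 difference -0.08, all genes -0.00317), where 16.0% of all genes were called. Cd28, the costimulatory receptor, fell by 0.96 and Cd5, a brake on receptor signals, by 0.90 on the log2 scale, while the phosphatase Ptpn22 rose by 0.72. In Foxp3 against Cd4, 5 rose and 2 fell, where 18.1% of all genes were called, and Themis, a gene of thymocyte selection, fell by 1.38. In Trdc against Cd4, 1 rose and 5 fell, where 4.0% of all genes were called. Of 7 receptor constant genes 0 rose and 2 fell in Cd8b1, and 0 rose and 1 fell in Foxp3 (Trac, -0.37). Trdc, which is among the 7, is 0 by rule in the Cd4, Cd8b1 and Foxp3 classes, so it could not be called there. In the Trdc class 4 rose, Trdc by the rule and Tcrg-C1, Tcrg-C2 and Tcrg-C4, while Trac (-1.04) and Trbc2 (-0.48) fell. Of the 4 CD3 chains 1 rose (Cd3d) and 1 fell in Cd8b1, and 0 rose and 1 fell in each other comparison. The gene that fell was Cd247 each time. Cd3d, Cd3e and Cd3g are part of the rule for T barcodes, so their values are not free of it. Of 8 recombination and joining genes 5 were tested and 0 were called in any comparison.

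Feedings were compared as 1 library against another, with no test, since no spread between animals is available. T barcodes differed in quality: 10.5%, 21.8% and 5.72% had little Malat1, a nuclear RNA (under 0.5% of UMIs), at median depths of 3905, 5424 and 5141 UMIs. The part of this and of depth in the shares below was not tested beyond the settings in the closing section. Ratios of locus shares are given with exact conditional intervals for counting error, for genes with at least 20 UMIs in a pair of libraries. The 3 comparisons share libraries.

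Of 18 beta genes, 2 were higher and 3 lower in LysoPS-OVA than in citrate buffer with intervals that leave out 1. Counted on CPM for all loci, 6 of 54 V genes were above and 6 below, where 29.4% of all genes with as many UMIs left out 1. The count for V genes is thus no larger a share than the background. Trbv3 had 52 of 702, 33 of 513 and 19 of 736 beta UMIs, from 47, 29 and 18 barcodes. Its share in LysoPS-OVA was 0.349 times that in citrate buffer (interval 0.195 to 0.599) and 0.401 times that in free OVA (0.216 to 0.727). Trbv15 had 31, 13 and 6 UMIs from 28, 12 and 6 barcodes, and a ratio of 0.185 (0.0630 to 0.449) for LysoPS-OVA against citrate buffer. Trbv16 had 35, 9 and 16 UMIs, a ratio of 0.436 (0.225 to 0.809) for LysoPS-OVA and 0.352 (0.149 to 0.747) for free OVA against citrate buffer. Trbv2 was higher in both ovalbumin libraries, with ratios of 1.61 (1.23 to 2.11) for free OVA and 1.37 (1.06 to 1.77) for LysoPS-OVA, and Trbv19 in LysoPS-OVA with 1.78 (1.05 to 3.10).

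Trbv3, Trbv15, Trbv16 and Trbv26, a list drawn up after these values were known, held 20.9%, 14.4% and 7.88% of beta UMIs over all T barcodes. In the Cd4 class they held 22.3%, 14.4% and 6.75%, in the Cd8b1 class 22.4%, 13.9% and 7.52%, and in the Foxp3 class 24.5%, 18.8% and 11.7%. These barcodes are among those the list was drawn up on, so the order of the libraries in each class is no separate evidence. Trbv26 by itself had a ratio to citrate buffer whose interval includes 1 in both ovalbumin libraries, and over all T barcodes Trbv16 was lowest in free OVA. Trbv2 held 15.8%, 25% and 22.2% in the Cd4 class and 7.2%, 21.8% and 16.5% in the Cd8b1 class, lowest in citrate buffer in both. In the Foxp3 class it held 16.3%, 20.8% and 15.0%, lowest in LysoPS-OVA.

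**Figure D5:**
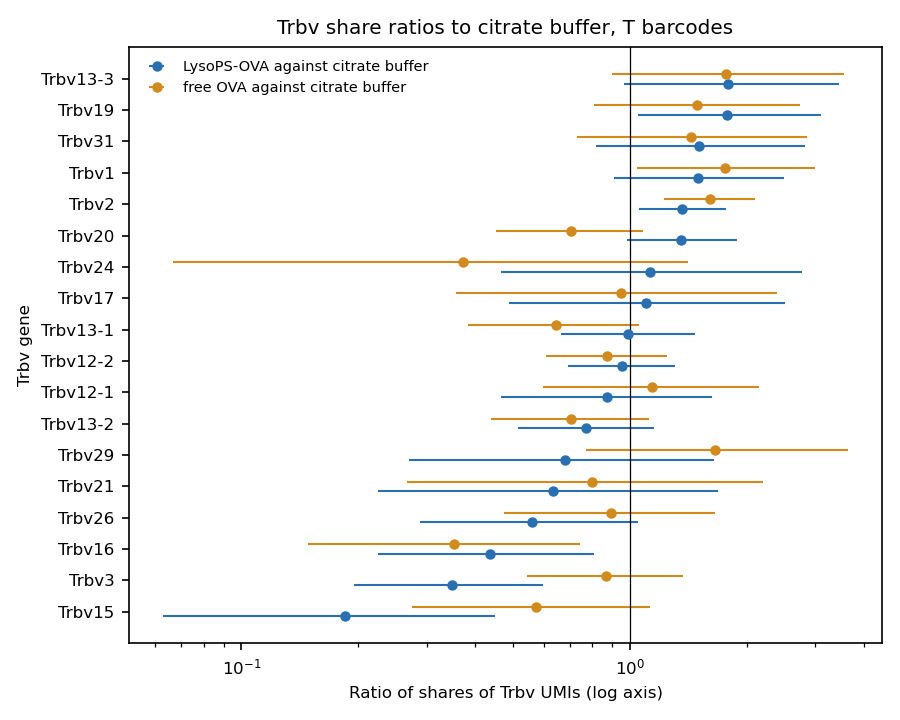
Ratio of each gene's share of beta V UMIs in LysoPS-OVA (blue) and free OVA (orange) to that in citrate buffer (log axis), T barcodes, with exact 95% intervals for counting error. Trbv15 (0.185), Trbv3 (0.349) and Trbv16 (0.436) are the lowest for LysoPS-OVA, and Trbv2 is above 1 in both.

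Between the ovalbumin libraries Trbv20 was higher, and Trbv3 and Trbv29 lower, in LysoPS-OVA. Trbv20 had 94 of 736 UMIs in LysoPS-OVA and 34 of 513 in free OVA, a ratio of 1.93 (1.29 to 2.94). Trbv29 had 10 UMIs against 17, a ratio of 0.410 (0.168 to 0.948). Of 15 beta genes 1 was above and 2 below 1. Of 27 alpha genes 1 was above (Trav13n-4, ratio 1.57) and 3 below (Trav4-2, 0.316; Trav7-3, 0.518; Trav5-4, 0.679). Over all loci 3 of 46 V genes were above and 6 below on CPM, against 17.1% of all genes. Free OVA against citrate buffer had 2 of 16 beta genes above (Trbv1 and Trbv2) and 1 below (Trbv16), and 3 of 44 V genes above and 2 below on CPM, against 22.7%. In the alpha locus 4 of 32 genes were above and 3 below in LysoPS-OVA against citrate buffer. Trav16d-dv11 had 82 UMIs against 49 (ratio 1.58, 1.10 to 2.30), while Trav16n, which shares windows with it, had 45 against 66 (0.644, 0.430 to 0.954). Trav7-3 was highest in free OVA with 44 of 676 UMIs against 26 of 1008 and 36 of 1068, 10 of the 44 in 1 barcode. Trav19 had 24 UMIs in 11 barcodes in citrate buffer, 2 in 1 barcode and 9 in 5. None of the 2 gamma and 2 delta genes with enough UMIs had an interval that left out 1.

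By fold, with at least 50 UMIs in the higher library, 2 of 13 V genes were up 1.5-fold (Trgv2 and Trav16d-dv11) and 2 down (Trbv3 and Trav16n) on CPM in LysoPS-OVA against citrate buffer. The same held for 11.1% of all 11526 genes and for 30.4% of genes with 50 to 149 UMIs. In free OVA against citrate buffer 1 of 10 was up (Trbv2) and 0 down, where 8.85% of all genes and 25% of those with 50 to 122 UMIs passed. In LysoPS-OVA against free OVA 2 of 9 were up (Trbv20 and Trav13n-4) and 0 down, where 4.56% and 15.2% passed.

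In T barcodes with at least 2 V UMIs of a locus, 1 gene often held them all. Of barcodes with at least 2 beta V UMIs, 1 gene held them all in 54 of 79 (68.4%), 54 of 74 (73.0%) and 69 of 96 (71.9%). From 3 beta UMIs it was 4 of 10 (40.0%), 9 of 16 (56.3%) and 7 of 11 (63.6%), and from 4 UMIs 1 of 2, 1 of 2 and 2 of 2. With at least 2 alpha V UMIs it was 99 of 164 (60.4%), 80 of 128 (62.5%) and 122 of 186 (65.6%). T cells can carry 2 rearranged alpha chains, and beta rearrangement is largely held to a single allele. Where 2 beta genes met in a barcode, 12 of 29 pairs (41.4%), 7 of 22 (31.8%) and 14 of 31 (45.2%) lay within 5 places in gene order. Of all possible pairs of seen beta genes 26.7% did, each gene pair counted once whatever its level. Pairs in barcodes also depend on how abundant each gene is, so no excess of neighbours can be read from these shares. For alpha pairs the shares were 13.0%, 16.1% and 5.19%, where 9.46% of all possible pairs lay as close. The most frequent beta pair was Trbv12-2 with its neighbour Trbv13-2, in 9 barcodes. Among alpha pairs 26.1%, 14.3% and 16.9% shared a 90-base window, and the most frequent was Trav16d-dv11 with Trav16n, in 20 barcodes. The part of undetected doublets in these pairs was not tested.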

How the data were processed

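Raw UMI counts per gene and barcode of 3 libraries were used. Per the submitters' processing notes, the authors counted with Cell Ranger 7.2.0 on the mm10 build. Per the labels' protocols, the kit read 90 bases from the 3′ side. Which annotation was used, and whether introns counted, is not given in the sources used here. Libraries held 96616683, 81559237 and 84089686 UMIs in 28927, 28660 and 20873 barcodes (citrate buffer, free OVA, LysoPS-OVA). Barcodes needed 300 genes or more and 10% or less mitochondrial UMIs, and Scrublet (scanpy 1.11.5, expected rate 0.8% per 1000 barcodes) removed 4357, 1383 and 1297 doublets (16.5%, 5.93% and 7.49%), leaving 21991, 21948 and 16026.

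Class sums per library were tested with edgeR 4.0.16 (filterByExpr, TMM, library as block, R 4.3.3), with DESeq2 1.42.0 as the alternative. The edgeR fit was checked on simulated counts, with changes set only in Cd8b1 against Cd4 and in genes above a minimum count. That check does not cover the Trdc class or V genes with few UMIs. The libraries are the blocks because all classes of a library come from the same animals. Feedings have 1 library each and were not tested, so shares carry counting error only. Tables and plots used pandas 2.3.3, scipy 1.17.1, numpy 2.4.6 and matplotlib 3.10.9 in Python 3.11.15.

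Named genes were the 5 highest of each locus in each class, the 6 highest and lowest called per contrast, the 4 highest and lowest ratios per pair of feedings at 50 UMIs or more, and a set of genes of invariant, ovalbumin-specific and gamma delta receptors. The members and lists were chosen with earlier results of these data known.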

Additional observations from a re-analysis of the deposited data

How the results depend on the processing

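V UMIs were few, so counts of V genes moved with the settings, and the cause was not tested except where the setting itself means fewer UMIs. Between classes, testing without a filter on low counts took in 111 V genes. It called 1 in Cd8b1 against Cd4 (Trav14d-3-dv8, lower) and 3 in Foxp3 against Cd4 (2 higher and 1 lower). The main fit called 0 in both. Of all 22244 genes the unfiltered fit called 850 higher and 1000 lower in Cd8b1, and 1090 higher and 1110 lower in Foxp3. In Trdc against Cd4 the locus total as offset gave 0 in place of 2, and leaving out each library in turn gave 1 each time, Trgv2. Tcrg-V1 turned to -1.0 under that offset. Without the replicate block (the library), 0, 0 and 2 V genes were called in the 3 contrasts, as with it, while calls over all genes in Cd8b1 against Cd4 went from 849 higher and 881 lower to 320 and 297. The other alternatives for the contrasts kept 0, 0 and 2.

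V genes past 1.5-fold in LysoPS-OVA against citrate buffer (4) were 1 with 1 vote per barcode, 1 with the gene seen, 2 with at least 4 Cd3 UMIs, 0 after thinning to 1500 UMIs, 1 past 2-fold, 12 from 20 UMIs and 0 from 100 UMIs. In free OVA against citrate buffer (1) they were 0 by votes, 2 with the gene seen, 2 over all deposited barcodes, 2 with at least 4 Cd3 UMIs, 0 thinned, 2 with Malat1 at 0.5% or more, 0 past 2-fold and 11 from 20 UMIs. In LysoPS-OVA against free OVA (2) they were 1 by votes, 0 thinned, 0 past 2-fold, 6 from 20 UMIs and 0 from 100 UMIs.

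The share of barcodes with 1 beta gene was 40.0% in citrate buffer and 56.3% in free OVA from 3 UMIs, and from 4 UMIs it was 50%, 50% and 100% in the 3 libraries. For alpha it was 73.7% in citrate buffer and 57.6% in LysoPS-OVA from 4 UMIs. Overlapping classes do not alter results over all T barcodes.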
